A study of Mus musculus with 16 samples.

Results

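The genes described are those of the cytosolic ribosome, measured by 78 of the 7729 probe sets in the table. They were taken by symbol: every probe set whose only annotated gene begins with Rpl or Rps and goes on with a digit or the letter p, together with Rpsa and without the Rps6k kinases. They cover 42 of the 4929 genes that have a probe set of their own in the table. Of the 42, 18 encode proteins of the large subunit, 18 proteins of the small subunit, 2 proteins of the stalk and 4 paralogs. A probe set is a group of short probes for a transcript, and 19 of the genes had more than 1. A further 86 probe sets list a ribosomal protein gene beside other symbols and fall outside the rule, among them those for Rpl3, Rpl5, Rps6 and Rplp1.

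RNA was measured in 16 muscle samples of female C57BL/6 mice aged 7 weeks. The SOD1-G93A mice carried a human SOD1 transgene with the G93A mutation and, at this age, were presymptomatic models of amyotrophic lateral sclerosis, and the other mice were non-transgenic (NTg). Gastrocnemius, in the calf, and triceps, in the upper forelimb, were sampled from 4 mice of each genotype, giving 4 groups of 4 arrays: SOD1-G93A gastrocnemius, NTg gastrocnemius, SOD1-G93A triceps and NTg triceps. The sources used here do not name the transgene's promoter or the mouse line, and the samples were whole muscle.

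A ribosome joins a small subunit, which reads the messenger RNA, and a large subunit, which forms the peptide bonds, and each holds a fixed set of proteins on a scaffold of ribosomal RNA. The flexible stalk of the large subunit recruits the elongation factors. Ribosomal protein mRNAs are abundant in every cell, and most begin with a run of pyrimidines (the TOP motif) through which mTOR signalling sets their translation. Muscle fibres gain or lose ribosomes as they grow or waste, and striated muscle expresses its own paralog, Rpl3l, beside the general Rpl3.

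The start regions of a few genes are shown because the family is known for a common promoter layout. Of the 42 genes, 37 were found by Entrez gene identifier in a table of RefSeq promoters (GRCm38.p6), which runs from 250 bases before to 50 bases after each start. The motif CCGGAAG, the core that ETS-family factors bind, occurred on either strand in 18 of 37 genes (48.6%), against 9.93% of all 27025 genes in that table. The letters CTTTC, read on the sense strand within 25 bases of the start, occurred in 10 of 37 genes (27%), against 7.87% of all genes. On the other strand of the same window CTTTC occurred in 13.5% of the members' genes and 7.07% of all genes. TATAAA in the 50 bases before the start occurred in 2.7% and 3.15%. These are matches of letters, not sites of binding. Each line gives the 50 bases centred on the start, 5′ to 3′ on the gene's strand, with CCGGAAG and CTTTC in capitals. Rpl13a and Rps3a1 are shown because they passed the test between muscles, Rpl4 and Rpl6 because they came nearest to it, Rpl38 because its window holds both motifs, and Rpl3l because it holds neither in capitals. Rpl7 passed that test too, but no promoter was found for it.
Rpl13a (chr7:45128721-45128770, minus strand): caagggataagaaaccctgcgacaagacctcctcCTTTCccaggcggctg
Rps3a1 (chr3:86142644-86142693, minus strand): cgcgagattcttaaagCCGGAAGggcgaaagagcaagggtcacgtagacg
Rpl4 (chr9:64173362-64173411, plus strand): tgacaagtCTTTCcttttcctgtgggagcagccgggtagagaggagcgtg
Rpl6 (chr5:121204476-121204525, plus strand): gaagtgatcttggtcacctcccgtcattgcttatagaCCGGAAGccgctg
Rpl38 (chr11:114668555-114668604, plus strand): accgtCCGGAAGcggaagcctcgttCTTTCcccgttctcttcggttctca
Rpl3l (chr17:24727801-24727850, plus strand, 1 of its listed starts): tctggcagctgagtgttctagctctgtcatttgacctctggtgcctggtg

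Of the 78 probe sets, 73 (40 genes) passed the filter on dim signal, which kept those whose average over the 16 arrays exceeded the table's 40th percentile (log2 6.75). The 5 that did not were Rpl7l1 1426386_at and 1452049_at, Rpl13a 1433928_a_at, Rps27 1460699_at and Rpl41 1454639_x_at, with means of 6.47, 6.27, 6.14, 5.83 and 5.78. All levels are log2 array signals, which depend on the probes as well as on the transcript, so the order of signals is not an order of mRNA amounts. The highest mean signals belonged to Rps29 1438859_x_at (12.66), Rps2 1431766_x_at (12.50) and Rps29 1415833_x_at (12.41), all small subunit proteins. The dimmest tested members were Rpl22 1448398_s_at (7.20), Rpl39 1423032_at (7.36) and Rps10 1439374_x_at (7.72). The median signal of the tested members was 11.02, against 7.99 over all 4637 tested probe sets.

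The members varied little between mice of a group. Their median SD within groups was 0.180 log2 units, against 0.278 over all tested probe sets. Among probe sets with a mean above 9 it was 0.174 for 68 members and 0.220 for 1146 others. Their median signals were 11.10 and 10.05, so these sets were not matched for signal. The widest spreads among all 78 were those of Rpl27a 1437729_at (1.02), the dim, untested Rps27 1460699_at (0.871) and Rps10 1439374_x_at (0.831), whose arrays are given further on. Further members also lay above the median of all tested probe sets, among them Rpl41 1422623_x_at (0.451) and Rpl39 1423032_at (0.429).

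Averaged over the 73 probe sets, the log2 signal per array was 10.87 ± 0.04 in the SOD1-G93A gastrocnemius group and 10.83 ± 0.06 in the NTg gastrocnemius group (SD, n = 4 each). It was 10.74 ± 0.04 in SOD1-G93A triceps and 10.77 ± 0.07 in NTg triceps. By array it ran from 10.84 to 10.93 in SOD1-G93A gastrocnemius and from 10.75 to 10.90 in NTg gastrocnemius, and from 10.70 to 10.80 in SOD1-G93A triceps and from 10.68 to 10.84 in NTg triceps. The genotypes overlapped in both muscles, and the muscles overlapped in NTg mice but not in SOD1-G93A mice. In whole muscle, fewer cells of a type and less RNA per cell cannot be told apart.

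**Figure D1:**
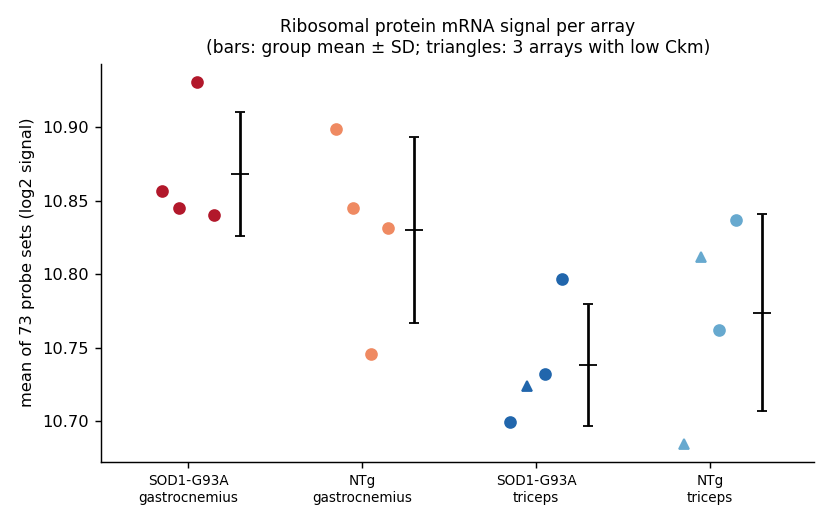
Mean log2 signal of the 73 tested ribosomal protein probe sets on each array, by group, with the group mean and SD (n = 4) beside the points. Triangles are the 3 triceps arrays with low Ckm. The SOD1-G93A gastrocnemius arrays (10.84 to 10.93) lie above the SOD1-G93A triceps arrays (10.70 to 10.80), a shift of the family that the values lost after quantile normalization, and the genotypes overlap in each muscle.

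Across the whole series, array medians lay between 7.10 and 7.26. On 3 triceps arrays, NTg replicates 1 and 2 and SOD1-G93A replicate 2, the muscle creatine kinase gene Ckm lay between 12.76 and 13.02, against 13.84 to 14.51 on the other triceps arrays. On these 3 arrays, 12 of the 73 tested members (16.4%, against 7.66% of all probe sets) lay below all other 13 arrays and 10 (13.7%, against 6.94%) above them, a count made after the values were seen. Of the 12 muscle fibre markers, those of slow fibres, Tnnt1 and Myh7, had means below the median of all tested probe sets. In gastrocnemius minus triceps, 12 of 12 muscle fibre markers were above 0, 4 of them called, with a median of 0.57. Of the 5 tested fibroblast and matrix markers 4 were above 0 and 1 was called, and both tested Schwann cell markers (Pmp22 and Mbp) were called, with a median of 1.80. Of the adipocyte and immune markers, 2 of each were tested and 0 were called. Over the arrays, the mean of the fibre markers in the table ran from 13.003 to 13.43 in SOD1-G93A gastrocnemius and 13.06 to 13.32 in NTg gastrocnemius, against 10.67 to 12.81 in SOD1-G93A triceps and 10.72 to 12.16 in NTg triceps. That of the Schwann cell markers ran from 7.90 to 9.54 in SOD1-G93A gastrocnemius and 8.98 to 9.34 in NTg gastrocnemius, against 7.16 to 7.57 in SOD1-G93A triceps and 6.83 to 7.59 in NTg triceps. The part of these cell types in the ribosomal protein values was not tested.

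The first comparison asked whether the transgene alters ribosomal protein mRNAs in gastrocnemius before symptoms. No member passed the test. limma called 0 of 73 members at an adjusted p under 0.05, and it called 0% of all 4637 probe sets. At an unadjusted p under 0.05 there were 0 members with higher values and 1 with lower values, against 0.884% and 1.34% of all probe sets. The median difference, SOD1-G93A minus NTg, was 0.05 log2 units over the members and -0.01 over all probe sets. It was above 0 in 50 of 73 members (68.5%), against 47.1% of all probe sets. The 95% interval of a single member reached a median of 0.28 to either side of its difference, which is not the precision of the family's median. With single arrays left out, the family's median ran from 0.03 to 0.07. The shift was uneven between mice. Its median was -0.01 with 33 members above 0 between replicates 1 and 2 of each genotype, and 0.11 with 59 above 0 between replicates 3 and 4.

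The member with an unadjusted p under 0.05 was Rpl41 1455578_x_at, which reads a very short large subunit protein. Its log2 signal was 11.47, 10.86, 11.86 and 11.05 in SOD1-G93A gastrocnemius, against 12.34, 11.84, 11.57 and 11.57 in NTg gastrocnemius (replicates 1 to 4, in that order here and in what follows). The groups overlapped. limma's difference was -0.52 (SE 0.23, unadjusted p = 0.0407, adjusted p = 0.999), with values also below NTg on average in triceps (11.34 ± 0.42 against 11.61 ± 0.21, SD, n = 4 each). A further Rpl41 probe set, 1422623_x_at, was at 10.73, 12.08, 11.02 and 10.91 in SOD1-G93A gastrocnemius and 10.68, 11.11, 10.99 and 10.996 in NTg gastrocnemius, 11.18 ± 0.61 against 10.94 ± 0.19 on average. It averaged 10.85 ± 0.54 in SOD1-G93A triceps and 11.11 ± 0.34 in NTg triceps. The probe sets thus differed in sign in gastrocnemius and were both lower on average in triceps, with overlapping groups.

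Among values above NTg, the groups did not overlap for 4 members (5.48%), against 1.38% of all probe sets, and in the opposite direction for 0 members, against 1.32%. Rpl19 1416219_at, a large subunit protein, was at 10.98, 11.21, 11.05 and 10.99 in SOD1-G93A gastrocnemius and 10.91, 10.86, 10.84 and 10.74 in NTg gastrocnemius. All 4 SOD1-G93A arrays lay above all 4 NTg arrays, with a difference of 0.22 (SE 0.12, limma's unadjusted p = 0.0785, adjusted p = 0.999). The other 3 were small subunit probe sets: Rps28 1423763_x_at at 0.15 (SE 0.12), Rps18 1448739_x_at at 0.13 (SE 0.12) and Rps10 1439374_x_at at 0.52 (SE 0.50). In these 3 the groups barely cleared each other. The lowest SOD1-G93A arrays were at 11.92, 11.581 and 7.217, and the highest NTg arrays at 11.916, 11.569 and 7.201. Rps19 1449243_a_at, whose human counterpart is mutated in Diamond-Blackfan anaemia, was at 9.96, 10.02, 9.97 and 9.67 in SOD1-G93A gastrocnemius and 9.87, 9.82, 9.49 and 9.59 in NTg gastrocnemius. These overlapped, and the difference of 0.21 (SE 0.12) did not pass limma's test (adjusted p = 0.999).

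By role, the median difference in gastrocnemius was 0.04 over 31 large subunit probe sets, 20 of them above 0, and 0.07 over 35 small subunit probe sets, 26 of them above 0. Of the stalk proteins, Rplp0 1419441_at was at -0.06 (SE 0.14) and Rplp2 1415879_a_at at 0.01 (SE 0.14). Rpsa 1448245_at, a small subunit protein also known as the laminin receptor, was at 0.16 (SE 0.16). Rpl11 1417615_a_at, which can bind Mdm2 and so stabilise p53, was at -0.06 (SE 0.12), and Rps26 1415876_a_at, a further gene of Diamond-Blackfan anaemia in humans, was at 0.13 (SE 0.12).

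The paralogs did not separate the genotypes either. Rpl3l 1449398_at, the striated muscle paralog of Rpl3, was at 11.05, 10.94, 10.84 and 11.11 in SOD1-G93A gastrocnemius and 10.88, 10.76, 11.06 and 10.83 in NTg gastrocnemius. The difference was 0.11 (SE 0.11), and 0.04 (SE 0.11) in triceps. Rpl22l1 1417126_a_at, a paralog of Rpl22, was at -0.05 (SE 0.15) in gastrocnemius and -0.07 (SE 0.15) in triceps. Rpl22 itself was at 0.08 (SE 0.18) by 1416603_at and -0.32 (SE 0.26) by 1448398_s_at in gastrocnemius, and at -0.24 (SE 0.18) and -0.19 (SE 0.26) in triceps. The 3 probe sets of Rps27l, a paralog of Rps27 that p53 induces, lay between -0.07 and 0.06 in gastrocnemius and between 0.05 and 0.24 in triceps. The highest, 1450925_a_at, was at -0.054 in triceps without the 3 arrays with low Ckm, of which NTg replicate 2 was far below the other NTg arrays.

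In triceps no member passed either, of 73 tested, and limma called 0% of all probe sets. At an unadjusted p under 0.05 there were 0 members, against 1.55% of all probe sets with higher values and 0.992% with lower values. The groups overlapped for every tested member, while 0.453% of all probe sets were without overlap above NTg and 0.496% below. The median difference, SOD1-G93A minus NTg, was -0.02 over the members and 0.02 over all probe sets, with 31 of 73 members above 0 (42.5%, against 54.4%). The sign of that median was not stable, since it was 0.02 without SOD1-G93A triceps replicate 2.

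The smallest unadjusted p above 0 in triceps belonged to Rpl7 1426162_a_at, a large subunit protein, at 0.21 (SE 0.11, limma's unadjusted p = 0.0807, adjusted p = 0.994). It was at 10.30, 10.53, 10.50 and 10.58 in SOD1-G93A triceps and 10.31, 9.95, 10.33 and 10.49 in NTg triceps. The low NTg array is replicate 2, which is among the 3 arrays with low Ckm. Below 0, Rpl13a 1455485_x_at was at -0.25 (SE 0.15) and Rpsa 1448245_at at -0.28 (SE 0.16). Rpsa had 11.02, 10.73, 10.98 and 11.18 in SOD1-G93A triceps, against 10.82, 11.82, 11.09 and 11.27 in NTg triceps. Here too NTg replicate 2 stood apart, as the highest array.

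Averaged over both muscles, with the mouse as a random block, limma called 0 of 73 members and 0% of all probe sets. The median over the members was 0.01, with 39 above 0 (53.4%, against 51.3% of all probe sets). Rpl41 1455578_x_at was again the only member with an unadjusted p under 0.05, at -0.39 (unadjusted p = 0.0467, adjusted p = 0.997, both from limma). By that measure 0 members (0.798% of all probe sets) were higher and 1 member (1.04% of all probe sets) was lower. Whether the genotype effect differed between the muscles was tested as an interaction. No member passed, 0% of all probe sets were called, and 0 members had an unadjusted p under 0.05, against 0.582% and 1.27% of all probe sets above and below 0. The difference of effects, gastrocnemius minus triceps, had a median of 0.06 over the members and was above 0 in 45 of 73 (61.6%, against 43.8%). The smallest p belonged to Rpl19 1416219_at at 0.35 (SE 0.17, unadjusted p = 0.0502, adjusted p = 0.999, limma), followed by Rpsa 1448245_at at 0.44 (SE 0.23) and Rps19 1449243_a_at at 0.31 (SE 0.16).

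The clearest differences lay between the muscles. In gastrocnemius minus triceps over both genotypes, 4 of 73 members (5.48%) were called higher by limma and 0 lower, against 2.11% and 1.57% of all probe sets. The 4 represent 3 genes, Rpl13a and Rpl7 of the large subunit and Rps3a1 of the small subunit. Each was higher in the gastrocnemius of 8 of 8 mice. The fit took group means without pairing the muscles of a mouse. With the mouse as a replicate block 3 were called, and Rpl7 1415979_x_at was not (limma's adjusted p = 0.0617). After quantile normalization, or without the 3 triceps arrays with low Ckm, 0 members were called, although all 4 stayed above 0. The count was also 0 when any 1 of 8 arrays was left out, namely SOD1-G93A gastrocnemius 1, 2 or 3, NTg gastrocnemius 1, 2 or 4, SOD1-G93A triceps 2 or NTg triceps 1, and 7 without NTg triceps 4. After quantile normalization, 0 of 68 members at mean signals of 9 to 13 were called higher. Of 1037 other probe sets there, without those that list a ribosomal protein gene, 26 (2.51%) were. The share of all probe sets is not set beside the counts under alternatives. They are therefore not read as a result about the members.

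Rpl13a 1417608_a_at reads a large subunit protein that in humans also leaves the ribosome to silence inflammatory mRNAs. Its log2 signal was 11.59, 11.64, 11.62 and 11.44 in SOD1-G93A gastrocnemius and 11.53, 11.46, 11.43 and 11.66 in NTg gastrocnemius. In triceps it was 11.28, 10.81, 11.12 and 11.28 in SOD1-G93A mice and 10.97, 10.68, 11.28 and 11.44 in NTg mice. The lowest arrays were the 3 with low Ckm, and NTg triceps replicate 4 reached into the gastrocnemius range. The difference was 0.44 (SE 0.11, 1.35-fold, limma's adjusted p = 0.0290), 0.25 (adjusted p = 0.0732) without those 3 arrays and 0.32 (adjusted p = 0.0554) after quantile normalization.

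The other probe sets of Rpl13a did not give this difference. Probe set 1455001_x_at was at 0.22 (SE 0.12, adjusted p = 0.257, limma), 1455485_x_at was at 0.0021 (SE 0.10), and 1433928_a_at was too dim to be tested. Identifiers ending in x_at mark probe sets that may read related sequences, which ribosomal protein genes have in plenty as processed pseudogenes.

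Rps3a1 1422475_a_at, a small subunit protein at the mRNA exit side, was at 12.07, 12.23, 12.22 and 12.09 in SOD1-G93A gastrocnemius and 12.11, 11.99, 11.98 and 12.08 in NTg gastrocnemius. In triceps it was 11.77, 11.57, 11.93 and 11.96 in SOD1-G93A mice and 11.53, 11.54, 11.78 and 11.94 in NTg mice. All 8 gastrocnemius arrays lay above all 8 triceps arrays, and the 3 arrays with low Ckm were again the lowest. The difference was 0.34 (SE 0.09, 1.27-fold, limma's adjusted p = 0.0353). It was 0.22 (adjusted p = 0.101) without the 3 arrays and 0.15 (adjusted p = 0.114) after quantile normalization.

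Rpl7 was called by 2 of its 3 probe sets. Probe set 1426162_a_at was at 10.74, 10.65, 10.81 and 10.63 in SOD1-G93A gastrocnemius and 10.76, 10.65, 10.57 and 10.61 in NTg gastrocnemius, against the triceps values given above. The muscles touched only at the top of the triceps range, and the difference was 0.30 (SE 0.08, 1.23-fold, limma's adjusted p = 0.0466). Without the 3 arrays it was 0.24 (adjusted p = 0.0979), and after quantile normalization 0.22 (adjusted p = 0.127).

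Probe set 1415979_x_at was at 11.30, 11.36, 11.37 and 11.30 in SOD1-G93A gastrocnemius and 11.32, 11.39, 11.26 and 11.29 in NTg gastrocnemius. In triceps it was 11.15, 11.04, 11.05 and 11.18 in SOD1-G93A mice and 11.10, 11.06, 11.07 and 11.11 in NTg mice. The muscles did not overlap, and here the arrays with low Ckm were not set apart from the other triceps arrays. The difference was 0.23 (SE 0.06, 1.17-fold, limma's adjusted p = 0.0484), 0.22 (adjusted p = 0.0718) without the 3 arrays and 0.12 (adjusted p = 0.251) after quantile normalization. The third probe set, 1426163_x_at, was at 0.29 (SE 0.16, adjusted p = 0.275).

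**Figure D2:**
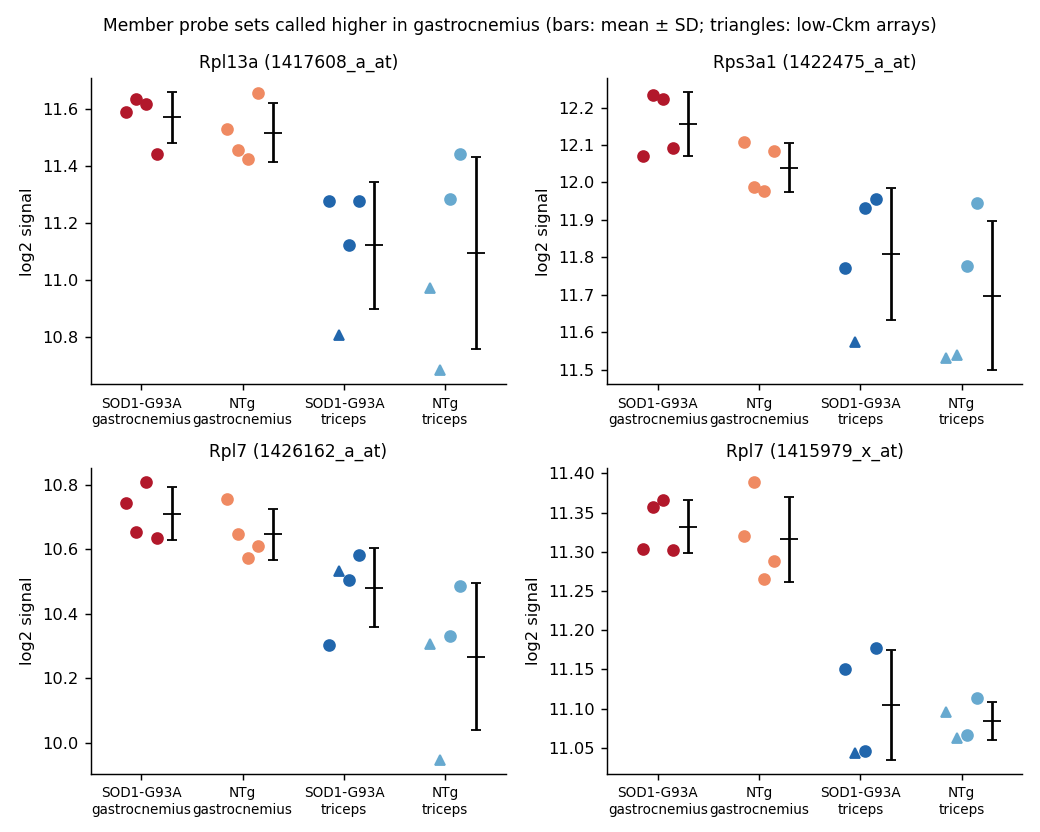
Log2 signal of the 4 probe sets that limma called higher in gastrocnemius than in triceps, by array and group, with the mean and SD (n = 4) beside the points. Triangles are the 3 triceps arrays with low Ckm. For Rps3a1 and Rpl7 1415979_x_at all 8 gastrocnemius arrays lie above all 8 triceps arrays. None of the 4 was called after quantile normalization, though all stayed above 0.

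Several more members came near the threshold. Rpl6 1416546_a_at was at 0.27 (SE 0.08, adjusted p = 0.0655), Rpl4 1425183_a_at at 0.29 (SE 0.09, adjusted p = 0.0696) and Rps3 1435151_a_at at 0.22 (SE 0.07, adjusted p = 0.0720), all in limma's fit. Rps3, which lines the mRNA entry channel, did not overlap between the muscles, as was the case for 3 members in all (4.11%, with Rps3a1 and Rpl7 1415979_x_at) and for 1.25% of all probe sets. In the opposite direction 0 members were without overlap, against 0.388%. Rpl3l 1449398_at had one of the smallest p below 0, at -0.12 (SE 0.08, adjusted p = 0.364).

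Over the whole family the median of gastrocnemius minus triceps was 0.10 log2 units, against 0.00 (-0.0042) over all probe sets, and 54 of 73 members were above 0 (74%, against 49%), but the median was -0.03 with 34 above 0 after quantile normalization. As deposited, 21 members had an unadjusted p under 0.05 above 0 (28.8%, against 11.4% of all probe sets) and 1 below 0 (1.37%, against 11%). After quantile normalization these were 6 above and 8 below 0. At mean signals of 9 to 13 they were 6 of 68 members (8.82%) above 0 and 7 below. Of 1037 other probe sets there, without those that list a ribosomal protein gene, 107 (10.3%) were above and 167 below 0. The direction of the family as a whole was therefore not the same under both scalings. As deposited, the median was 0.14 over 31 large subunit probe sets, 24 of them above 0, and 0.11 over 35 small subunit probe sets, 27 of them above 0. Over the 5 tested probe sets of paralogs it was -0.05, with 2 above 0. Of the stalk proteins, Rplp0 was at 0.20 (SE 0.10) and Rplp2 at -0.05 (SE 0.10), and neither passed limma's test (adjusted p = 0.223 and 0.811).

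**Figure D3:**
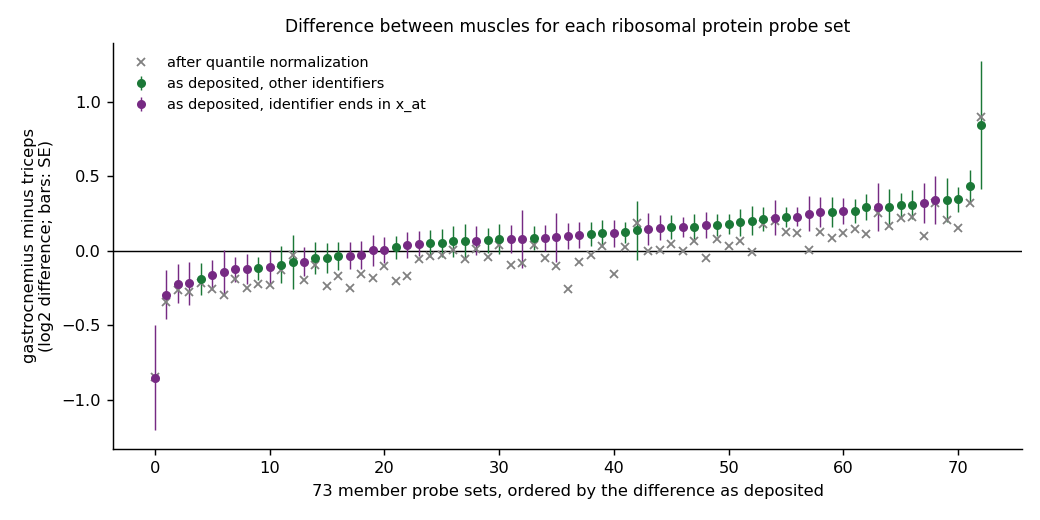
Gastrocnemius minus triceps (log2) for each of the 73 tested probe sets, ordered by the value as deposited. Bars are standard errors, green marks identifiers that do not end in x_at, purple those that do, and grey crosses are the values after quantile normalization. As deposited 54 of 73 lie above 0, and after quantile normalization 34 do.

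The shift as deposited was larger at high signal in other probe sets, and in members with the exception of 8 at a mean signal of 9 to 10, whose median was 0.15 as deposited and 0.11 after quantile normalization. The other probe sets here leave out those of several symbols that include a ribosomal protein gene. At a mean signal of 11 to 12 the difference was above 0 in 26 of 30 members (86.7%) and in 120 of 157 other probe sets (76.4%), with medians of 0.15 and 0.10. At 12 to 13 it was above 0 in 8 of 8 members and 72 of 76 other probe sets, with medians of 0.19 and 0.25. Over the range from 9 to 13, 4 of 68 members (5.88%) were called higher, against 40 of 1037 other probe sets (3.86%). The spread of the arrays differed too. The SD over all probe sets of an array ran from 1.76 to 1.89 in SOD1-G93A gastrocnemius and 1.70 to 1.81 in NTg gastrocnemius, against 1.61 to 1.78 in SOD1-G93A triceps and 1.60 to 1.79 in NTg triceps. Quantile normalization makes these equal, and with it the medians at 11 to 12 were 0.00 (0.0002) for members and -0.02 for other probe sets.

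**Figure D4:**
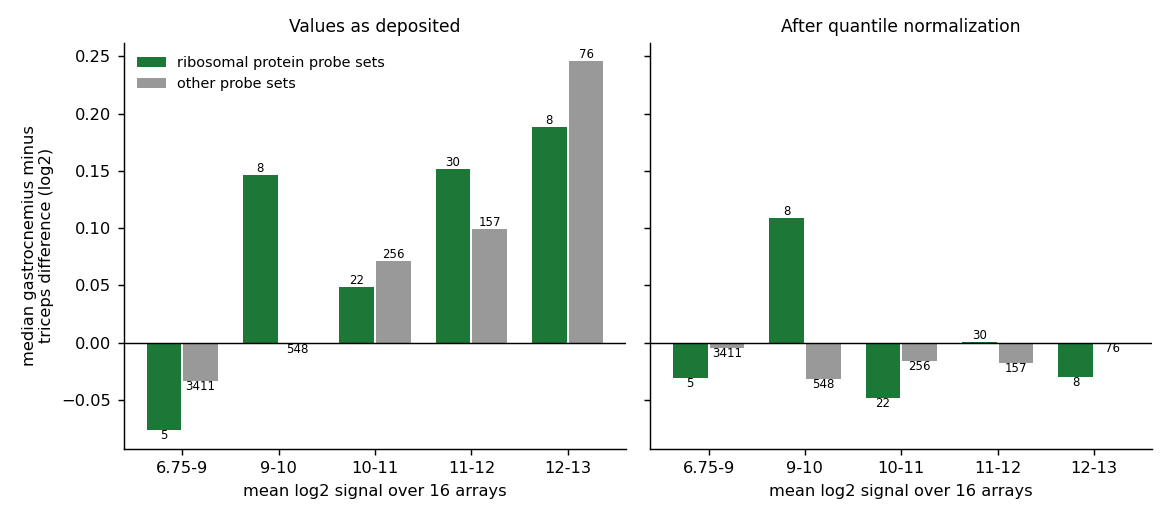
Median of gastrocnemius minus triceps (log2) by mean log2 signal up to 13, with the number of probe sets at each bar. Green bars are ribosomal protein probe sets. Grey bars are other tested probe sets, without those of several symbols that include a ribosomal protein gene. As deposited (left) the others lie further above 0 at higher signal, and the members do so except for the 8 at 9 to 10, with 0.19 for members and 0.25 for others at 12 to 13. After quantile normalization (right) the medians at that signal are -0.03 and 0.00 (-7.7e-06).

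Within the genotypes the same contrast called 0 members each time. In SOD1-G93A mice the median was 0.13, with 56 of 73 above 0 (76.7%, against 47.9% of all probe sets), and 0.819% of all probe sets were called higher and 0.216% lower. At an unadjusted p under 0.05, 13 members were above 0 (17.8%, against 4.85%) and 0 below 0 (against 6.32%). All gastrocnemius arrays lay above all triceps arrays for 19 members (26%), against 4.27% of all probe sets, and below them for 0 members, against 4.03%. Those 19 included Rps19 1449243_a_at at 0.37 (SE 0.12), Rpl6 1416546_a_at at 0.33 (SE 0.11) and Rpl19 1416219_at at 0.33 (SE 0.12). In NTg mice the median was 0.07, with 45 above 0 (61.6%, against 52.1%), and 1.14% of all probe sets were called higher and 0.0863% lower. At an unadjusted p under 0.05, 8 members were above 0 (11%, against 7.61%) and 2 below 0 (2.74%, against 5.41%). The gastrocnemius arrays lay wholly above for 5 members (6.85%, against 3.86%), namely Rps3a1, Rps3, 2 probe sets of Rpl7 and Rpl35 1416243_a_at, and wholly below for 1 (1.37%, against 2.83%), Rps10 1439374_x_at. After quantile normalization the median was 0.0046 in SOD1-G93A mice and -0.04 in NTg mice. The difference between the genotypes in this contrast is the interaction given above, in which no member passed.

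Mouse by mouse, the median of gastrocnemius minus triceps over the 73 members was 0.19, 0.18, 0.20 and 0.05 in SOD1-G93A mice 1 to 4 and 0.26, 0.03, -0.0021 and 0.01 in NTg mice 1 to 4. All 4 SOD1-G93A mice were above 0. Of the NTg mice only the first was far from 0. The triceps arrays of NTg mice 1 and 2 and of SOD1-G93A mouse 2 are those with low Ckm, and these mice had medians of 0.26, 0.03 and 0.18. The part of low Ckm in the medians was not tested. By replicate number, the median difference was 0.19 over replicates 1 and 2, with 51 members above 0, and 0.06 over replicates 3 and 4, with 53 above 0. All arrays with low Ckm are in replicates 1 and 2, but SOD1-G93A triceps replicate 1, with Ckm at 13.84, is not among them. Low Ckm and replicate number are therefore only partly separable here, and their parts were not tested.

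Probe sets of the same gene did not always agree. Of 18 genes with 2 or more tested probe sets, 10 had the same sign of the muscle difference in all, and the signals of a gene's tested probe sets spanned a median of 0.74 log2 units. Rps10, a small subunit protein, was the widest case among tested probe sets. Its probe sets gave 0.31 (1416719_a_at, SE 0.10), 0.11 (1438723_a_at, SE 0.08), 0.06 (1434854_a_at, SE 0.10), 0.0050 (1456497_x_at, SE 0.09) and -0.85 (1439374_x_at, SE 0.35). The 37 tested probe sets whose identifiers do not end in x_at had a median of 0.14, with 30 above 0 and 3 called, and the 36 that do had a median of 0.08, with 24 above 0 and 1 called. Of all tested probe sets 49% were above 0 and 2.11% called higher, and after quantile normalization 0 members of either kind were called. The 83 tested probe sets with several symbols, outside the rule, had a median of 0.09, with 65 above 0 and 3 called higher.

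Of the 12 and 10 tested members for which the 3 triceps arrays with low Ckm lay below and above all others, those with the widest gap on each side are described here, picked out after their values were seen. Rpl27a 1437729_at, a large subunit protein, was at 8.57, 5.62, 8.57 and 8.60 in SOD1-G93A triceps and 5.70, 6.59, 8.46 and 8.42 in NTg triceps. In gastrocnemius it stayed between 8.41 and 8.49 in SOD1-G93A mice and between 8.16 and 8.70 in NTg mice. The 3 low values are the 3 arrays, and the muscle difference was 0.84 (SE 0.43, limma's adjusted p = 0.246) with them and -0.10 without them. The next widest gaps below were those of Rps7 1419364_a_at (11.04 to 11.19, against 11.67 or more on the other arrays), Rps2 1431766_x_at (11.84 to 11.95, against 12.41 or more) and Rpl7a 1422613_a_at (11.41 to 11.48, against 11.81 or more).

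Rps10 1439374_x_at moved the other way. It was at 7.19, 9.70, 7.17 and 7.29 in SOD1-G93A triceps and 8.62, 9.86, 7.69 and 7.67 in NTg triceps. In gastrocnemius it was between 7.22 and 7.98 in SOD1-G93A mice and between 6.90 and 7.20 in NTg mice. The same 3 arrays were the highest, and the difference of -0.85 (adjusted p = 0.171) became -0.15 without them. No other Rps10 probe set was raised on all 3 of these arrays: 1438723_a_at was at 11.36 in SOD1-G93A replicate 2 and at 11.17 and 11.32 in NTg replicates 1 and 2, within or below the range of the rest. The dim Rpl13a 1433928_a_at was at 7.46 in SOD1-G93A replicate 2 and at 7.13 and 6.95 in NTg replicates 1 and 2, and at most 6.56 elsewhere. The other tested members on this side had gaps of 0.0095 to 0.19, and 6 of the 10 were probe sets of Rps20, Rps24 and Rpl27. A further Rpl27 probe set, 1416099_at, was among those below. Whether low Ckm and these values have a common source was not tested.

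**Figure D5:**
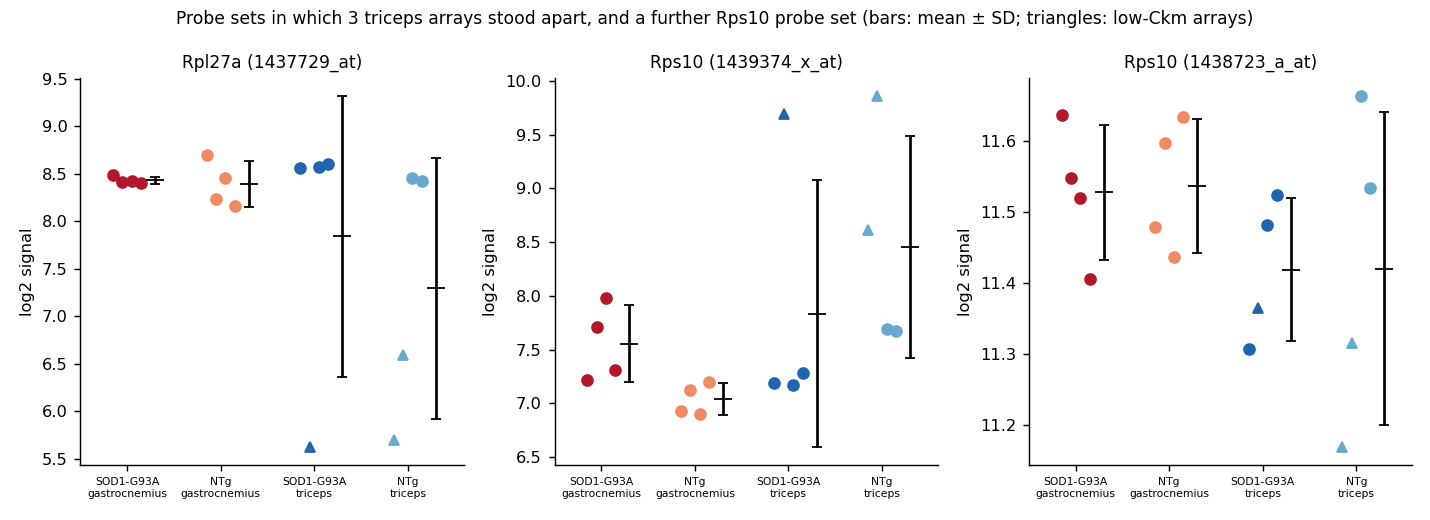
Log2 signal by array and group of Rpl27a 1437729_at (left) and Rps10 1439374_x_at (middle), in which the 3 triceps arrays with low Ckm (triangles) stood apart, and of a further Rps10 probe set, 1438723_a_at (right). Bars are mean and SD (n = 4). Rpl27a was at 5.62, 5.70 and 6.59 on those arrays, and at 8.16 or more on the others.

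Other genes of translation were described by lists. In gastrocnemius minus triceps, the elongation factor list (with release factors) had a median of 0.16 over 11 tested probe sets, 8 of them above 0 and 0 called. Its smallest p belonged to Eef1a1 1424635_at, which brings aminoacyl-tRNA to the ribosome, at 11.11 ± 0.25 in gastrocnemius of SOD1-G93A mice and 11.24 ± 0.13 in that of NTg mice, against 10.84 ± 0.29 in SOD1-G93A triceps and 10.76 ± 0.23 in NTg triceps (SD, n = 4 each). The difference was 0.38 (SE 0.11, limma's adjusted p = 0.0696). The initiation factors had a median of -0.03 over 55 probe sets, with 24 above 0 and 0 called. Eif4a1 1427058_at, the helicase that unwinds mRNA leaders, was at 0.56 (SE 0.16, adjusted p = 0.0655) and Eif4e 1450908_at, the cap-binding protein, at 0.48 (SE 0.14, adjusted p = 0.0713). Eif2s2 1448820_a_at, a subunit of the factor that delivers the initiator tRNA, was at -0.36 (SE 0.10, adjusted p = 0.0576). A further Eif2s2 probe set, 1456617_a_at, did not share this direction in both genotypes. It averaged 10.30 in gastrocnemius and 10.44 in triceps of SOD1-G93A mice, and 10.23 and 10.04 in those of NTg mice.

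Ribosome assembly factors had a median of -0.02 over 21 probe sets, with 10 above 0 and 0 called. Other genes whose mRNAs are known to carry a TOP motif had a median of -0.03 over 35 probe sets, with 16 above 0 and 0 called. For comparison, the ribosomal proteins had 0.10 as deposited and -0.03 after quantile normalization. The mitochondrial ribosomal proteins, which build a separate ribosome, had a median of 0.06 over 77 probe sets, with 49 above 0 (63.6%) and 0 called.

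The growth signalling list had a median of -0.08 over 22 probe sets, with 7 above 0, 0 called higher and 1 called lower. That gene was Deptor, an inhibitor bound to mTOR. Deptor 1453571_at was at 8.77 ± 0.28 in gastrocnemius of SOD1-G93A mice and 8.32 ± 0.47 in that of NTg mice, against 9.35 ± 0.39 in SOD1-G93A triceps and 9.0005 ± 0.33 in NTg triceps (SD, n = 4 each). The difference was -0.63 (SE 0.17, limma's adjusted p = 0.0464), with gastrocnemius higher in 1 of 8 mice. Sesn1 1433711_s_at, a stress-induced brake on mTOR, was at -0.45 (SE 0.13, adjusted p = 0.0655). In SOD1-G93A minus NTg, 0 genes of these lists were called in either muscle, and the list medians lay between -0.03 and 0.06 in gastrocnemius and between -0.05 and 0.06 in triceps.

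The promoter motifs did not sort the members by muscle. With each gene given by its brightest probe set, the median of gastrocnemius minus triceps was 0.15 in 18 genes with CCGGAAG and 0.16 in 17 genes without it. It was 0.11 in 9 genes with CTTTC near the start, of which Rpl13a, Rpl4 and Rpl38 are shown above, and 0.16 in 26 genes without it. Rpl13a counts here with 0.0021, from its brightest probe set 1455485_x_at, and not with 0.44, from the called 1417608_a_at. The called gene Rpl7, for which no promoter was found, is not counted here.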

How the data were processed

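Biotin-labelled cRNA from whole-muscle RNA was hybridised to Affymetrix mouse arrays. The deposited table holds log2 values, 1 per probe set and array, and MAS5 is named without a version in the submitters' processing notes. The sources used here name neither the scaling target nor how the 7729 probe sets were chosen. Base 2 was read from the values (-0.773 to 14.81). For arrays there is no depth, and their number limits the precision. Symbols came from the platform annotation (7053 probe sets with 1 symbol, 330 with several, 346 with none).

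Values were used as deposited. The 4637 probe sets with a mean above the 40th percentile were tested with limma 3.58.1 in R 4.3.3, with a mean per group (16 arrays), an intensity trend, and Benjamini-Hochberg adjustment over all of them. A probe set was called at an adjusted p under 0.05. For the comparison over both muscles the mouse was a random block (correlation 0.18). The fit was also run on simulated data with independent noise. These had no pairing of muscles and no arrays that stand apart, so that run does not bear on either. Replicates are the labels' biological replicates, taken as the mouse because the series states 4 mice of each genotype: after subtraction of group means, the 2 muscles of a mouse had correlations of 0.14 to 0.39 over the table, and 8 of 8 gastrocnemius arrays correlated best with the triceps array of their own number. Arrays of 1 muscle with the same number in the other genotype had correlations of 0.00065 to 0.37.

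Members, lists and tests were chosen with earlier results of these data known. Named are called members, the 4 of smallest p per direction and comparison, members fixed by role, the 3 brightest and 3 dimmest, and 2 per direction of each companion list. The text gives part of these. The probe sets without overlap and other probe sets of a named gene were added after their values were seen. The alternatives were quantile normalization, other filters, no intensity trend, arrays left out, blocks, and other choices of probe sets. No protein sequences were used here.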

Additional observations from a re-analysis of the deposited data

Results flagged for a closer look

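Among 184 group checks, over 45 named probe sets and the members' mean per array, 6 had an array whose gap to the nearest of the other 3 exceeded 0.83 of the group's range. For independent checks chance gives about 1 in 20 groups, but these checks share arrays, and Rpl27a was included after its values were seen. A check for a single array also cannot flag arrays that stand apart together, as Rpl27a did in NTg triceps. The number therefore gives no verdict on chance. Rpl27a 1437729_at in SOD1-G93A triceps had its lowest array, replicate 2, at 5.62 with the others at 8.57 to 8.60 (0.988 of the range), and Rps10 1439374_x_at had the same array highest, at 9.70 with the others at 7.17 to 7.29 (0.953). Rps27l 1450925_a_at in NTg triceps had replicate 2 lowest, at 9.23 with the others at 9.75 to 9.85 (0.847). These arrays are among the 3 with low Ckm. The other 3 cases lay in gastrocnemius. In SOD1-G93A gastrocnemius, Rps20 1456436_x_at had replicate 2 lowest, at 10.50 with the others at 10.80 to 10.85 (0.871), and the dim, untested Rps27 1460699_at had replicate 3 highest, at 8.10 with the others at 6.14 to 6.30 (0.917). In NTg gastrocnemius, Rpl7 1426163_x_at had replicate 3 lowest, at 9.61 with the others at 10.13 to 10.20 (0.892). In 0 cases did all arrays of a muscle move one way and all of the other muscle the opposite way.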

How the results depend on the processing

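The counts of members called in the genotype comparisons, in the interaction and within each genotype stayed at 0 under every alternative run. In gastrocnemius minus triceps over both genotypes, 4 members were called higher (5.48%, against 2.11% of all probe sets). This became 0 after quantile normalization, without the 3 low-Ckm triceps arrays and without the 3 mice they came from (a choice made after seeing the data), 2 with no filter, 2 with no intensity trend, 2 with the brightest probe set per gene, 10 with replicates 1 and 2 against 3 and 4 as a block, and 7 with the probe sets of several symbols added after seeing the data. With the mouse as a replicate block it was 3. The share of all probe sets called under each alternative is not given beside these counts or those that follow. They are therefore not read as exceeding that share. Leaving out single arrays gave 0 to 7: 0 without any of the 8 named with the result, 1 without SOD1-G93A gastrocnemius 4, NTg gastrocnemius 3, SOD1-G93A triceps 1 or NTg triceps 2, 2 without SOD1-G93A triceps 3, 4 without SOD1-G93A triceps 4 or NTg triceps 3, and 7 without NTg triceps 4. Of 24 alternatives each, Rpl13a 1417608_a_at passed 13 (adjusted p 0.00979 to 0.236), Rps3a1 passed 9 (0.00947 to 0.355), Rpl7 1426162_a_at 6 (0.0229 to 0.337) and Rpl7 1415979_x_at 4 (0.0247 to 0.324), and all were above 0 in each.

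The family's median in that contrast lay between 0.09 and 0.12 with single arrays left out and was -0.028 after quantile normalization. Quantile normalization gave 0.0046 in SOD1-G93A mice and -0.042 in NTg mice, and the brightest probe set per gene 0.19 in SOD1-G93A mice. Without the 3 arrays the sign turned for Rps10 1416719_a_at (-0.082) and Rps27l 1450925_a_at (-0.054) in triceps, Rps27l over both muscles (-0.0010), the interaction of Rpl7 1426162_a_at (0.0081) and of Rps27l (0.12), and the muscle difference of Rpl27a (-0.10). Without the 3 mice it turned for Rps9 1434624_x_at (0.0025) and Rpl27a (-0.14). None of these had passed a test, and the cause was not tested. All p-values rest on 4 mice a group, and dim members have only imprecise signals.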
